A study of Nannospalax ehrenbergi and Mus musculus with 14 samples.

Results

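miR-31 is a microRNA whose hairpin precursor gives 2 mature products, miR-31-5p from the strand nearer the 5′ end and miR-31-3p from the opposite strand of the stem. Both were followed through 14 small RNA libraries, and they are 2 of the 1326 mature microRNA names in the deposited tables. The members were chosen with earlier results of these data in view, in which miR-31-3p stood among the largest rises at the injected side of granuloma, so the members were chosen by the normalized counts of the granuloma comparison. The values of that comparison are given as a description and are not tested.

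*Spalax*, the blind mole rat, and male C57BL/6 mice had received the carcinogen 3-methylcholanthrene (3MCA) as 1 subcutaneous injection on the left of the neck. The dose was 1 mg in 500 µl for *Spalax* and 200 µg in 200 µl for mice. Each animal gave an injected side (IS), which held the lesion, and an uninjected side (UIS), which was neck muscle of the same treated animal. The females spalax_600 and spalax_976 had a granuloma, a benign inflammatory growth, removed 14 and 16 months after treatment. The female spalax_2240 and the male spalax_2230 had a fibrosarcoma, a malignant tumor of fibroblasts, removed after 18 and 30 months. All 4 were *Spalax*. The *Spalax* were not inbred and their ages are known only roughly, with estimates from 2 years to over 10 years. The mice were 3 to 4 months old, and mouse_512, mouse_1023 and mouse_1019 had a fibrosarcoma removed after 11, 12 and 14 weeks. By the labels, every UIS library thus comes from an animal that carried a lesion, and no library labelled as from an untreated animal was analysed here. The mouse UIS library that the labels give to mouse_1019 has a column name with a different number, so it is called unnumbered here and was not paired. Levels are normalized counts, that is, reads divided by a size factor of the library, and the *Spalax* and mouse tables were scaled separately.

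The sides are also different tissues by their microRNA content. A list of 7 skeletal muscle microRNAs took between 27.7% and 37.3% of the reads of the UIS libraries, and between 0.00959% and 3.94% of those of the IS libraries. The libraries held between 2034574 and 13982842 microRNA reads, so that 3 reads, the floor used here, were at most 0.000147% of a library.

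MicroRNAs are short RNAs that pair through their seed, near the 5′ end, with messenger RNAs and lower their translation or stability. Of a precursor's arms, usually one accumulates and the other is mostly degraded. miR-31 is well known from epithelia, where it is abundant in keratinocytes and rises in wounds, and from muscle, where it targets the messenger RNA of dystrophin and, in satellite cells, that of the myogenic factor Myf5. It rises in dystrophic muscle. Its gene lies near the Cdkn2a tumor suppressor locus, with which it is lost in many tumors.

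In the mouse annotation (GENCODE M21, GRCm38) the gene Mir31 spans chr4:88910557-88910662 on the minus strand, 106 bases in all, within an exon of the long noncoding RNA AL805899.1, which is transcribed from the same strand. The nearest genes looked up were Ifne, 30.4 kb away, Mtap, 226 kb away, Cdkn2a, 364 kb away, and Cdkn2b, 396 kb away. The hairpin is shown because the 2 members are the opposite sides of its stem. The capitals mark the longest run of uninterrupted base pairs that a search of the sequence found, 9 pairs, G-U pairs allowed, between bases 39 to 47 and bases 65 to 73.

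Mir31 hairpin: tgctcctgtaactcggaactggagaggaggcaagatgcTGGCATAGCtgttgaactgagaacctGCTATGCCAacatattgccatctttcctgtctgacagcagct

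miR-31-5p, the abundant arm, was far higher at the IS than at the UIS in mice. In the mouse fibrosarcomas it stood at 13402 normalized counts in mouse_1019, 22410 in mouse_1023 and 17724 in mouse_512, a mean of 17845 ± 4505 (SD, n = 3). At the mouse UIS it stood at 115 in mouse_1023, 429 in mouse_512 and 1922 in the unnumbered library, a mean of 822 ± 966 (SD, n = 3). The sides did not overlap, and the unnumbered library was the highest of the UIS. By reads, miR-31-5p ranked between 35 and 41 among the microRNAs of the fibrosarcoma libraries, and between 115 and 276 among those of the UIS libraries. Within mouse_1023 it was 194-fold higher at the IS (95% counting interval 157 to 244), and within mouse_512 it was 41.4-fold higher (36.2 to 47.4). The folds of the 2 mice thus differed by more than counting error. The intervals of single libraries and pairs throughout cover counting error only.

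Across the 6 mouse libraries the log2 fold change of miR-31-5p was 5.25 (SE 0.94; limma, Benjamini-Hochberg adjusted p = 0.00471). Limma, which fits a linear model per microRNA and borrows the spread from all of them, was run on log2(normalized count + 1), a scale that understates the change of microRNAs with few reads. It called 57.8% of the 547 microRNAs tested in this comparison, 32.2% as higher and 25.6% as lower, so a call alone does not set miR-31 apart. Every IS library lay above every UIS library for 36.6% of them. By size, the rise of miR-31-5p ranked 6 of 547 from the largest, but 20 in edgeR, 17 in DESeq2, and 16 with a pseudocount of 0.1 or without the UIS of mouse_1023. The call was kept under each of 8 alternative analyses and when each of the 6 libraries was left out.

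**Figure D1:**
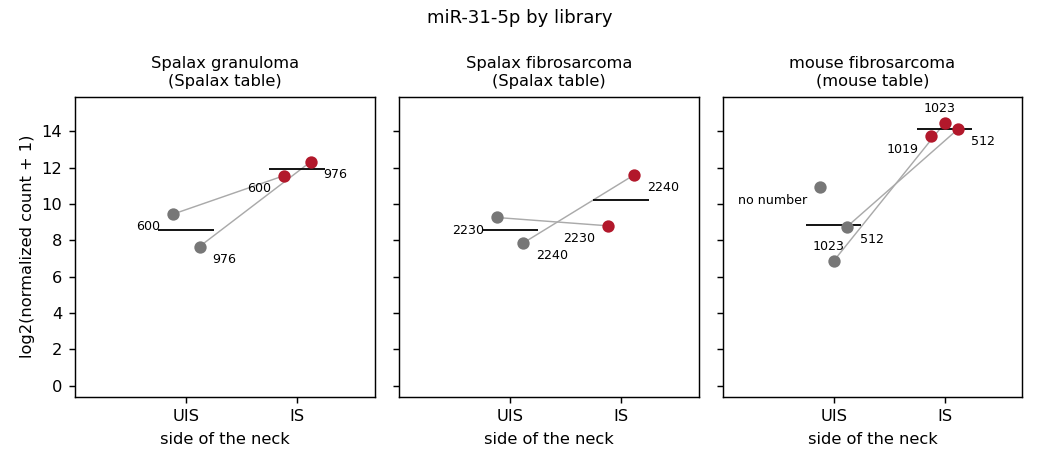
miR-31-5p in each library, as log2(normalized count + 1) on the vertical axis, by side of the neck; points are libraries labelled with the number in the name of the animal, grey for UIS and red for IS, horizontal bars are group means on this scale, and thin lines join the sides of an animal. All mouse IS points lie above the UIS points, and spalax_2230 is the only animal whose line falls, from 610 to 444 normalized counts.

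miR-31-3p, the rarer arm, followed in mice. It stood at 201, 482 and 454 normalized counts in the fibrosarcomas of mouse_1019, mouse_1023 and mouse_512, from 555, 667 and 409 reads. At the UIS it stood at 1.37 in mouse_1023, 5.77 in mouse_512 and 9.50 in the unnumbered library, from 1, 3 and 7 reads. The sides did not overlap, and all the UIS values rested on a handful of reads. Within mouse_512 the fold was 78.8 (95% counting interval 26.8 to 384), and within mouse_1023, with 1 read at the UIS, it was 351 (62.8 to 13891). The log2 fold change was 6.00 (SE 0.68; limma adjusted p = 0.00115), and its size ranked 4 of 547, 6 in edgeR and DESeq2 and 8 with a pseudocount of 0.1. This arm passed the minimum of 10 normalized counts in 3 libraries only through its IS libraries, so it had to differ and the call is no support. With no minimum, the limma adjusted p was 0.000837.

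In *Spalax* fibrosarcoma the 2 animals differed. miR-31-5p stood at 3105 normalized counts at the IS of spalax_2240 and at 444 at that of spalax_2230, a mean of 1775 ± 1881 (SD, n = 2). At the UIS it stood at 230 in spalax_2240 and 610 in spalax_2230, a mean of 420 ± 269 (SD, n = 2). The sides overlapped, since the fibrosarcoma of spalax_2230 lay below its own UIS. Within spalax_2240 the IS was 13.5-fold higher (95% counting interval 11.7 to 15.6). Within spalax_2230 the IS was at 0.728 of the UIS (0.651 to 0.815). For that animal the direction depended on the scaling, because with both libraries scaled to their total reads the IS was 2.37-fold above the UIS.

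The log2 fold change of miR-31-5p in *Spalax* fibrosarcoma was 1.64 (SE 1.01; limma adjusted p = 0.243), which did not pass the threshold of 0.05, while limma called 37.4% of the 447 microRNAs tested, 15.2% as higher and 22.1% as lower. Without the IS library of spalax_2230 it was 3.05 (limma adjusted p = 0.0464), and without that of spalax_2240 it was 0.24 (limma adjusted p = 0.852). With reads scaled to the library totals it was 3.33 (limma adjusted p = 0.0267).

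miR-31-3p in *Spalax* fibrosarcoma stood at 34.7 normalized counts at the IS of spalax_2240 and 10.9 at that of spalax_2230, from 16 and 20 reads. The UIS held 2.15 in spalax_2240 and 7.22 in spalax_2230, from 2 and 6 reads. Here every IS library lay above every UIS library, as was so for 32.2% of the microRNAs tested, although the gap between 7.22 and 10.9 was small. The within-animal fold was 16.1 (95% counting interval 3.79 to 145) in spalax_2240 and 1.51 (0.584 to 4.59) in spalax_2230, an interval that includes no change. The log2 fold change was 2.02 (SE 0.92; limma adjusted p = 0.123) and did not pass the threshold. It was 3.53 (limma adjusted p = 0.0106) with reads scaled to the library totals, which is no support, since in *Spalax* this arm also reached the minimum only through its IS libraries.

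In granuloma, the comparison that chose the members, miR-31-5p stood at 2999 normalized counts at the IS of spalax_600 and 5081 at that of spalax_976, a mean of 4040 ± 1472 (SD, n = 2). The UIS held 692 in spalax_600 and 201 in spalax_976, a mean of 446 ± 347 (SD, n = 2). The IS was 4.34-fold higher within spalax_600 (95% counting interval 3.93 to 4.79) and 25.3-fold higher within spalax_976 (21.6 to 29.9). Thus spalax_976 had both the lowest UIS level and the highest IS level of the *Spalax* libraries. The log2 fold change was 3.38 (SE 1.01).

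miR-31-3p in granuloma stood at 61.2 normalized counts at the IS of spalax_600 and 50.7 at that of spalax_976, from 49 and 40 reads. The UIS of spalax_600 held 2.83, from 2 reads, and that of spalax_976 held 0 reads. The fold was 21.6 (95% counting interval 5.66 to 183) in spalax_600 and, against a floor of 3 reads in the UIS library, at least 13.3-fold higher in spalax_976, where the two-sided 95% counting interval starts at 10.3. The log2 fold change was 4.86 (SE 0.92), which depends on the added count because of the UIS library at 0. In *Spalax*, this arm reached 10 normalized counts in 4 of 4 IS libraries and in 0 of 4 UIS libraries. Limma called 48.3% of the 447 microRNAs in this comparison, 25.5% as higher and 22.8% as lower, and 41.4% had both IS libraries above both UIS libraries.

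**Figure D2:**
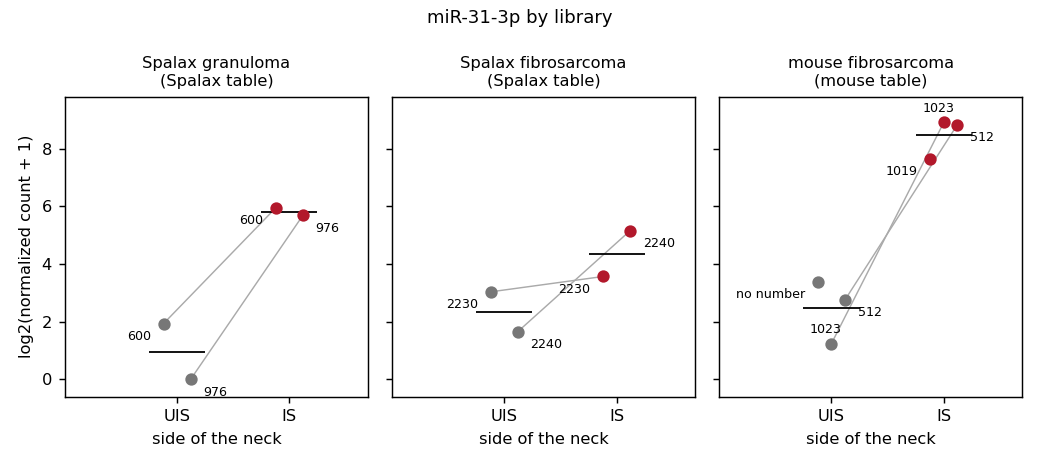
miR-31-3p in each library, as log2(normalized count + 1) on the vertical axis, by side of the neck; points are libraries labelled with the number in the name of the animal, grey for UIS and red for IS, horizontal bars are group means on this scale, and thin lines join the sides of an animal. The IS points lie above the UIS points in every panel, with the narrowest gap, 7.22 against 10.9 normalized counts, in *Spalax* fibrosarcoma.

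The difference between the 2 lesions of *Spalax* is also a description, since it holds the granuloma values. The granuloma change less the fibrosarcoma change was 1.74 (SE 1.44) on the log2 scale for miR-31-5p and 2.84 (SE 1.29) for miR-31-3p.

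Levels in the species can be set side by side only in the *Spalax* table, which also holds 5 of the mouse libraries on its own scale. In that table miR-31-5p was highest in the mouse fibrosarcomas, at 15231 ± 3715 normalized counts (SD, n = 3), with every library above every *Spalax* library. *Spalax* granuloma came next, at 4040 ± 1472 (SD, n = 2), and then *Spalax* fibrosarcoma, at 1775 ± 1881 (SD, n = 2), whose libraries overlapped with those of granuloma. The UIS of granuloma-bearing *Spalax*, at 446 ± 347 (SD, n = 2), of fibrosarcoma-bearing *Spalax*, at 420 ± 269 (SD, n = 2), and of mice, at 217 ± 184 (SD, n = 2), overlapped with each other, and those of *Spalax* also with *Spalax* fibrosarcoma. The mouse UIS mean there leaves out the unnumbered library, the highest mouse UIS, which the *Spalax* table does not hold. In the mouse table it stood at 1922 normalized counts, against 115 in mouse_1023 and 429 in mouse_512. *Spalax* reads were counted under mouse microRNA names, so a level of *Spalax* also depends on how its reads matched those names, which was not tested.

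A test added after the data were seen compared the change at the IS between mouse and *Spalax* fibrosarcoma within that table. Its spread was taken from all 13 libraries there, those of granuloma included. The unnumbered mouse UIS library, the highest of the mouse UIS for both arms, is not in that table. In the fit of the mouse libraries alone, leaving it out raised the mouse change from 5.25 to 6.29 for miR-31-5p. For miR-31-3p it rose from 6.00 to 6.47. The mouse change exceeded the *Spalax* change by 4.77 (SE 1.34) on the log2 scale for miR-31-5p (limma adjusted p = 0.0271) and by 4.46 (SE 1.20) for miR-31-3p (limma adjusted p = 0.0234). For miR-31-3p this is no support, since the arm passed the minimum only through its IS libraries, and with no minimum the limma adjusted p was 0.0331. Of 607 microRNAs, 26.0% were called, 20.3% with the larger rise in mice. With the animal as a block neither difference passed the threshold, at 4.97 for miR-31-5p (limma adjusted p = 0.102) and 4.88 for miR-31-3p (limma adjusted p = 0.0575). The block leaves out mouse_1019, which has no paired UIS library in this fit, and without the block the same libraries gave limma adjusted p = 0.0356 and 0.0219. Nor did either pass without the UIS of mouse_1023, at 3.77 and 3.72, without the UIS of spalax_2230, at 4.07 and 3.77, or without its IS, at 3.37 and 3.67, and miR-31-5p did not without the IS of mouse_1023, at 4.61 (limma adjusted p from 0.0559 to 0.102 in these fits). The species also differed in the time from injection to sampling, in dose, in age and in the sex of 1 of the 2 *Spalax*. They differed in origin too, since the *Spalax* were caught in the field and the mice were purchased. These differences cannot be told apart from species.

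The size of every change at the IS depended on how libraries were scaled. With the deposited size factors the median change over all tested microRNAs, on the log2 scale, was 0.13 in granuloma, -0.23 and 0.21 in the fibrosarcomas of *Spalax* and mice. Scaled to the library totals it was 2.03, 1.46 and 2.73, and of the microRNAs called the share that were higher went from 52.8% to 85.2%, from 40.7% to 84.0% and from 55.7% to 93.3%. Of all microRNAs tested, 57.6%, 43.4% and 70.9% were then called higher and 10.0%, 8.30% and 5.08% lower. miR-31-5p was at 5.23, 3.33 and 7.63 under that scaling and miR-31-3p at 6.23, 3.53 and 8.13, above the median in each comparison under both scalings. Fewer muscle cells and less muscle microRNA per cell cannot be told apart in these bulk libraries.

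**Figure D3:**
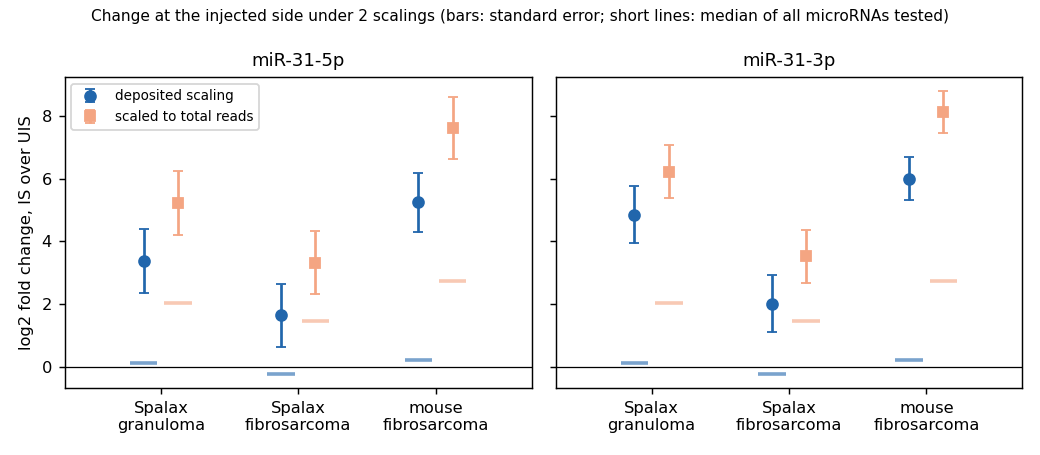
Log2 fold change of miR-31-5p (left) and miR-31-3p (right) at the IS over the UIS, on the vertical axis, in the 3 comparisons; circles use the deposited scaling and squares reads scaled to the library totals, bars are standard errors from limma, and short lines are the median of all microRNAs tested under the same scaling. Both arms lie above the median in every comparison, and *Spalax* fibrosarcoma has the lowest points, 1.64 and 2.02 with the deposited scaling.

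The share of miR-31-3p among the reads of both arms compares the arms within a library, and no scaling between libraries can move it. Each read covers a whole mature arm, so no correction for length was made. In the mouse fibrosarcomas the share was 1.48% in mouse_1019 (95% exact Clopper-Pearson interval 1.36 to 1.61), 2.11% in mouse_1023 (1.95 to 2.27) and 2.50% in mouse_512 (2.27 to 2.75). The interval of mouse_1019 lay below those of the other mice, a gap beyond counting error. In granuloma the share was 2.00% in spalax_600 (1.48 to 2.63) and 0.987% in spalax_976 (0.706 to 1.34). In *Spalax* fibrosarcoma it was 2.39% in spalax_2230 (1.47 to 3.67) and 1.11% in spalax_2240 (0.633 to 1.79). miR-31-5p was thus the dominant arm in every library of both species.

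At the UIS the share rested on few reads. It lay between 0.492% and 1.33% in mice, was 0.926% and 1.17% in fibrosarcoma-bearing *Spalax*, and was 0.408% and 0% in granuloma-bearing *Spalax*, where 0 of 158 reads allows a share of up to 1.90% by the floor of 3 reads and of up to 2.31% by the exact interval. The share was higher at the IS in 6 of 6 animals with both sides, but the counting intervals of the sides were separate in 1 of them, spalax_600. That animal and spalax_976 belong to the granuloma comparison, which chose the members for a rise of miR-31-3p, so their higher share is no support. In the 4 animals outside granuloma the intervals of the sides overlapped. The 4 animals outside granuloma cannot give an exact two-sided p below 0.125, so no test was made.

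**Figure D4:**
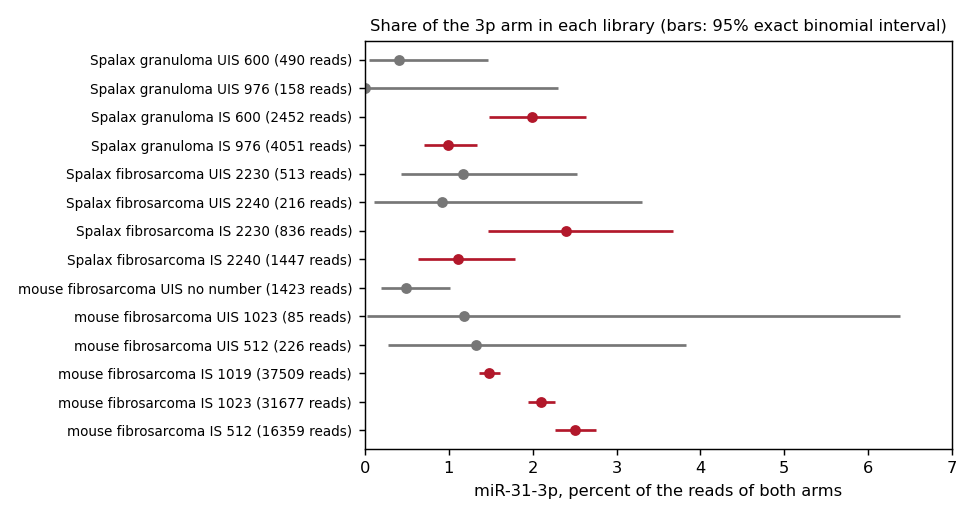
Share of miR-31-3p among the reads of both arms, in percent on the horizontal axis, in each library; points are shares, bars are 95% exact binomial intervals, grey for UIS and red for IS, and the reads of both arms are in parentheses. The IS shares lie between 0.987% and 2.50%, and the UIS intervals are wide because few reads stand behind them.

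Across libraries the arms moved together, with a Pearson correlation of log2(normalized count + 1) of 0.92 over 8 *Spalax* libraries and 0.97 over 6 mouse libraries. The libraries fall into sides, so any microRNA that differs between the sides correlates, and the correlations here are descriptions. In *Spalax* the microRNAs most like miR-31-5p, of 445 compared, were miR-132-3p (0.949), miR-100-5p (0.921), miR-132-5p (0.913), miR-3473b (0.905) and miR-322-3p (0.882). The microRNAs most like miR-31-3p were miR-125b-1-3p (0.949), miR-27a-5p (0.949), miR-132-5p (0.947), miR-503-5p (0.945) and miR-322-3p (0.926), so that miR-132-5p and miR-322-3p stood near both arms. Only between 0 and 3 reads stood behind miR-503-5p in each *Spalax* UIS library. miR-132-3p, which is induced by growth factors and neuronal activity, was likewise lowest among the *Spalax* IS libraries in the fibrosarcoma of spalax_2230. It was picked by its correlation over these same libraries, so this restates that choice. It stood at 89.8 normalized counts there, against 169 in spalax_2240 and 227 and 243 in the granulomas of spalax_600 and spalax_976. At the UIS of spalax_2230 it stood at 68.6, below that animal's IS, unlike miR-31-5p with the deposited scaling.

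In mice the microRNAs most like miR-31-5p, of 545 compared, were miR-346-5p (0.991), miR-412-5p (0.988), miR-125b-1-3p (0.985), miR-6539 (0.984) and miR-99b-5p (0.984). For miR-31-3p they were miR-103-2-5p (0.989), miR-125b-1-3p (0.987), miR-99b-5p (0.986), miR-344b-3p (0.984) and miR-222-5p (0.984). miR-125b-1-3p was thus among the closest in both species for miR-31-3p. Few reads stood behind several of these at the mouse UIS. Per library, miR-346-5p had at most 9 there, miR-412-5p at most 5, and miR-103-2-5p and miR-344b-3p at most 4.

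Other microRNAs are known to change with miR-31 in damaged, dystrophic muscle, and they were taken as a list in 3 classes. Of 5 microRNAs of the regenerative class, 4 rose and 0 fell in mouse fibrosarcoma, namely miR-335-5p, miR-34c-5p, miR-449a-5p and miR-494-3p, with a median log2 fold change of 2.88 over the class against 0.21 over all microRNAs tested. The largest of these was that of miR-34c-5p, a target of p53, at 4.37 (SE 0.48; limma adjusted p = 0.001). In *Spalax* fibrosarcoma 2 rose, miR-34c-5p and miR-449a-5p, and 2 fell, miR-206-3p and miR-335-5p, with a median of -0.09 against -0.23. In granuloma 1 rose, miR-494-3p, and 1 fell, miR-206-3p, with a median of 0.88 against 0.13. Of all microRNAs tested, 32.2% were called higher and 25.6% lower in mouse fibrosarcoma, and 15.2% and 22.1% in *Spalax* fibrosarcoma. In granuloma these shares were 25.5% and 22.8%, so its counts of 1 in 5 are near them. miR-206-3p is made in skeletal muscle and is also in the muscle list. With the animal as a block 2 rather than 1 were called higher in granuloma. That fit called 210 of the 447 microRNAs tested, 52.9% of these calls as higher. In mice the block can use only the 4 paired libraries, and there 2 were called higher. They were miR-34c-5p with miR-335-5p under the block and with miR-449a-5p without it, with a median of 3.28 in both fits. Of the 569 microRNAs tested in these 4 libraries, 231 were called with the block, 62.8% of them higher. Without the block 217 were called, 58.5% of them higher. Scaled to the library totals, miR-335-5p no longer fell in *Spalax* fibrosarcoma.

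Of the 3 microRNAs known from fiber loss, miR-1a-3p, miR-29c-3p and miR-135a-5p, 3 fell in both *Spalax* lesions, and 2 in mouse fibrosarcoma, where miR-135a-5p was at 0.14 (SE 1.40; limma adjusted p = 0.936). Of all microRNAs tested, 22.8%, 22.1% and 25.6% were called lower in granuloma, *Spalax* fibrosarcoma and mouse fibrosarcoma. The class median was -11.66 for granuloma and -10.72 and -4.11 for the fibrosarcomas of *Spalax* and mice, and the calls were the same under scaling to the library totals. Under that scaling 10.0%, 8.30% and 5.08% of all microRNAs tested were called lower. Both microRNAs of the inflammatory class, miR-222-3p and miR-223-3p, a microRNA of myeloid cells, rose in all 3 comparisons, with class medians of 4.38, 4.83 and 2.36. The shares of all microRNAs tested that were called higher were 25.5%, 15.2% and 32.2%. In mice miR-223-3p lost its call in the 4 paired libraries, with the block and without it, and with size factors computed without muscle microRNAs, while the class median was 2.46 and 2.34.

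Markers of cell types changed between the sides as follows, and their part in the change of miR-31 was not tested. Of the 7 skeletal muscle microRNAs, 7 fell in each *Spalax* lesion and 3 in the mouse fibrosarcomas, with medians of -10.75, -12.98 and -6.28, and miR-133a-5p was at 0 in both *Spalax* fibrosarcomas. The shares of all microRNAs tested that were called lower were 22.8% in granuloma and 22.1% and 25.6% in the fibrosarcomas of *Spalax* and mice. Epithelial microRNAs, a list of 7 that includes the miR-200 family, miR-203 and miR-205, took at most 0.0243% of any library. Their summed share was between 0.00241% and 0.0136% at the IS of granuloma against at most 0.000946% at its UIS, and between 0.00496% and 0.00724% in *Spalax* fibrosarcoma against at most 0.000736%. In mice it was between 0.00805% and 0.0243% at the IS against between 0.00303% and 0.0180% at the UIS. No epithelial marker was at 0 in all libraries of a group. Of those tested, 1 of 5 rose in granuloma and in *Spalax* fibrosarcoma, miR-141-3p in both, with list medians of 1.35 and 1.04, while 25.5% and 15.2% of all microRNAs tested were called higher, so the counts are near those shares. In mice 1 of 4 fell, miR-203-3p, which is typical of keratinocytes, by 2.30 on the log2 scale (limma adjusted p = 0.0294), and the list median was 0.42. Scaled to the library totals, 4 of 6 rose in granuloma, 3 of 6 in *Spalax* fibrosarcoma and 3 of 5 in mice, where miR-203-3p no longer fell. Under that scaling 57.6%, 43.4% and 70.9% of all microRNAs tested were called higher, so these counts are also near the shares. With the animal as a block, and in edgeR, 0 of 5 were called in granuloma, while these fits called 210 and 212 of 447 microRNAs.

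Leukocyte microRNAs, a list of 6, took between 0.398% and 2.53% of the IS libraries and between 0.0715% and 0.144% of the UIS libraries. Of them 4 rose and 1 fell in granuloma, 4 rose in *Spalax* fibrosarcoma and 2 rose in mouse fibrosarcoma, with list medians of 2.44, 2.90 and 1.35. The count in mice, 2 of 6, is near the 32.2% of all microRNAs tested that were called higher there. In granuloma 25.5% of all microRNAs tested were called higher and 22.8% lower, and in *Spalax* fibrosarcoma 15.2% were called higher. miR-142a-3p and miR-223-3p, both of blood-forming cells, rose in all 3 comparisons. In the 4 paired mouse libraries neither was called, with the block or without it, and miR-150-5p fell. Scaled to the library totals, 5 of the 6 rose in each comparison, while 57.6%, 43.4% and 70.9% of all microRNAs tested were called higher.

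Of 5 microRNAs of fibroblasts and smooth muscle, 3 rose and 2 fell in granuloma and in mouse fibrosarcoma, and 0 rose and 2 fell in *Spalax* fibrosarcoma, with list medians of 2.60, 1.14 and 0.60. Those that rose were miR-199a-5p, miR-199a-3p and miR-214-3p, and those that fell in all 3 comparisons were miR-143-3p and miR-145a-5p, which are highest in smooth muscle. Of all microRNAs tested, 25.5%, 15.2% and 32.2% were called higher in granuloma, *Spalax* fibrosarcoma and mouse fibrosarcoma, and 22.8%, 22.1% and 25.6% lower. Scaled to the library totals, the first 3 rose in all comparisons and 0 of the 5 fell. Under that scaling 57.6%, 43.4% and 70.9% of all microRNAs tested were called higher and 10.0%, 8.30% and 5.08% lower, so these counts are near the shares. The list took between 12.4% and 13.2% of the granuloma libraries, between 4.19% and 7.57% of the *Spalax* fibrosarcoma libraries and between 7.21% and 11.6% of the mouse fibrosarcoma libraries. Both endothelial microRNAs, the arms of miR-126a, fell in each comparison with medians of -2.30, -2.36 and -2.31, but 0 of 2 were called when reads were scaled to the library totals. Of the 3 red cell microRNAs, 0 passed the limma test in any comparison when all libraries of the species were used without the block. In mice miR-451a and miR-144-5p fell in edgeR and, by limma, in the 4 paired libraries, with the block and without it. There edgeR called 311 of 547 microRNAs, 59.8% of them higher. The paired fits called 231 of 569 with the block and 217 without it, 62.8% and 58.5% of them higher.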

How the data were processed

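Small RNA libraries were made with a TruSeq kit and sequenced on a single lane. The authors trimmed adaptors, mapped reads with mirDeep and compared sides with DESeq2. The build and settings of this mapping are not given in the sources used here. The submitters' processing notes name TopHat 1.4.1, HTSeq, DESeq and GRCm38 without a role. The authors deposited a normalized signal (the reads of a microRNA over the library's size factor) in a mouse table and in a *Spalax* table that also holds 5 mouse libraries. Whole reads were recovered for 100% of the values (tolerance 0.01 read), and edgeR with TMM factors on these reads gave 212 calls for granuloma, 163 for the fibrosarcomas of *Spalax* and 311 for those of mice. The reads of the 5 shared libraries were the same in both tables.

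Limma with a spread that follows the mean was run on log2(value + 1) where 2 or more *Spalax* libraries, or 3 or more mouse libraries, reached a value of 10, with a Benjamini-Hochberg threshold of 0.05. A shared fit was made for the 8 *Spalax* libraries and another for the 6 mouse libraries. The comparison of mouse with *Spalax* changes used a fit of all 13 libraries of the *Spalax* table. Replicates of a group are separate animals, and their reads differed beyond sampling noise (chi-square over its degrees of freedom 327.1 or more). The members and the lists were chosen with earlier results of these data known. The microRNAs named are the 2 members, the list members and the 5 with the highest correlation with each arm in each species. Libraries that share a number are the sides of 1 animal. Correlations of paired deviations were 0.0933 for granuloma, 0.00405 for *Spalax* fibrosarcoma, and -0.107 and 0.122 for mouse_1023 and mouse_512, the pairs used for the block in mice. The tests were tried on simulated reads. Alternatives were edgeR, DESeq2, total scaling, size factors without muscle microRNAs, no minimum, a pseudocount of 0.1, the block, fits restricted to the 4 libraries compared, and omission of each library in turn. The comparison of mouse with *Spalax* changes and a fit of the 4 paired mouse libraries without the block were added after the data were seen. Software was Python 3.11.15, DESeq2 1.42.0, edgeR 4.0.16 and limma 3.58.1 under R 4.3.3. The hairpin and positions are from GENCODE M21 on GRCm38.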

Additional observations from a re-analysis of the deposited data

Results flagged for a closer look

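The log2 fold change of miR-31 at the injected side was larger in mouse fibrosarcoma than in *Spalax* fibrosarcoma by an interaction test added after the data were seen, with a difference of 4.77 on the log2 scale for miR-31-5p and 4.46 for miR-31-3p (limma adjusted p = 0.0271 and 0.0234). For miR-31-3p the p is no support, since this arm passed the minimum only through its IS libraries. The difference rests on 5 mouse and 4 *Spalax* fibrosarcoma libraries, of which 2 are mouse UIS libraries. The unnumbered mouse UIS library, the highest of the mouse UIS for both arms, is not among these, so no fit of this test held it. In the fit of the mouse libraries alone, leaving it out raised the change from 5.25 to 6.29 for miR-31-5p. For miR-31-3p it rose from 6.00 to 6.47. The spread of the difference was taken from all 13 libraries of the *Spalax* table, those of granuloma included. No fit of this test left out a granuloma library. With the deposited scaling, miR-31-5p rose from the UIS to the IS in 2 of 2 paired mice and in 1 of 2 *Spalax*. Over all alternatives and left-out libraries the difference stayed positive, between 3.37 and 6.17 for miR-31-5p (limma, edgeR or DESeq2 adjusted p from 0.00559 to 0.102) and between 3.67 and 5.25 for miR-31-3p (adjusted p in the same fits from 0.00392 to 0.117).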

How the results depend on the processing

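No group comparison of the members changed direction under any of the alternatives run. In mouse fibrosarcoma miR-31-5p kept its call under all 8 alternatives and with each library left out (adjusted p up to 0.0200). The calls of miR-31-3p, here and below, are no support, since it passes the minimum only through its IS libraries. Leaving out any IS library takes miR-31-3p below the minimum there, so 3 such fits gave no value for it. Scaled to the library totals, granuloma moved to 5.23 for miR-31-5p and 6.23 for miR-31-3p, and *Spalax* fibrosarcoma passed the threshold at 3.33 and 3.53 (limma adjusted p = 0.0267 and 0.0106). A pseudocount of 0.1 moved miR-31-3p in granuloma to 6.69. The excess of the mouse over the *Spalax* change lost its call in edgeR for miR-31-5p, at 4.25 (edgeR adjusted p = 0.0576, with 67 microRNAs called in all against 158), with a pseudocount of 0.1 for miR-31-3p, at 4.75 (limma adjusted p = 0.117), and with the animal as a replicate block for both, at 4.97 and 4.88. The block changed no other call of the members. In mice it uses the 4 paired libraries, which called 231 microRNAs with it and 217 without it, a fit added after the data were seen.

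With each library left out in turn, miR-31-5p ranged from 2.50 to 4.27 in granuloma, 0.24 to 3.05 in *Spalax* fibrosarcoma, 4.26 to 6.29 in mouse fibrosarcoma, 0.34 to 3.14 for granuloma less fibrosarcoma and 3.37 to 6.17 for mouse less *Spalax*. miR-31-3p ranged from 3.89 to 5.82, 1.22 to 2.81, 5.39 to 6.47, 1.87 to 3.81 and 3.67 to 5.25. For mouse less *Spalax* only fibrosarcoma libraries were left out, not those of granuloma. A lone library left in a group is assumed to vary like the other groups. The difference between species lost its call for an arm without the UIS of mouse_1023, without the IS of mouse_1023 for miR-31-5p, or without either side of spalax_2230 (3.37 to 4.61 for miR-31-5p and 3.67 to 3.77 for miR-31-3p). The number of microRNAs called ranged from 128 to 234 in granuloma, lowest without the IS of spalax_600 and at 139 and 129 without the UIS of spalax_600 and spalax_976. It ranged from 76 to 179 in *Spalax* fibrosarcoma, with 76 and 78 without the UIS of spalax_2240 and spalax_2230, and from 189 to 289 in mice, with 189 and 203 without the UIS and IS of mouse_1023. It ranged from 77 to 186 for mouse less *Spalax*, with 77 and 105 without the UIS of spalax_2240 and spalax_2230, and 81 and 102 without the UIS of mouse_512 and mouse_1023. The 3p share ranged from 0.987% to 2.00% and from 0% to 0.408% at the IS and UIS of granuloma, 1.11% to 2.39% and 0.926% to 1.17% in *Spalax* fibrosarcoma, and 1.79% to 2.30% and 0.834% to 1.25% in mice. Between 0 and 7 reads stood behind miR-31-3p in each UIS library, which limits its folds.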
